A study of Mus musculus with 26 samples.

Results

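Polyamines are small positively charged metabolites that growing cells need, and the 8 genes Odc1, Srm, Sms, Amd1, Sat1, Oaz1, Oaz2 and Azin1 encode the enzymes that make or acetylate them and the proteins that control the first of these enzymes. The genes were chosen by name, with earlier results of these data known. A gene counted as measured when at least 1 probe set carried its symbol alone in the platform annotation. That held for 6 of the 8, out of 12394 genes so represented on the array. The 3 probe sets for Sms also carry the symbol of its pseudogene Sms-ps, no probe set is listed under Amd1, and both genes were not analysed here. The 6 measured genes have 10 probe sets, all of which passed the filter on dim signals, at or above log2 5 on all 26 arrays, so no group mean of a member is a bound. The dimmer Oaz2 set came closest to that floor, with a mean of 5.49 in untreated D- cells.

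S49 is a mouse T lymphoma line, and D- (deathless) is a variant of it whose cells survive raised cyclic AMP (cAMP), whereas wild-type (WT) cells die of it. The groups were D- cells at 0, 2, 6 and 24 h and WT cells at 0, 2, 6 and 24 h of 8-CPT-cAMP, a form of cAMP that enters cells and switches on protein kinase A, with 4 untreated arrays and 3 arrays at each treated time in each line. The labelled dose, 100 mM, may be a unit error. The comparison of D- with WT is between 2 cell lines, and the labels name no gene that differs between them. The titles of the treated WT samples carry the word untreated beside a time, whereas 2 other label fields of each give the treatment, which was followed here. The replicates are labelled biological but no separate cultures are described, and p-values therefore rest on an array spread that may be technical.

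Putrescine is made from ornithine by ornithine decarboxylase (Odc1), spermidine synthase (Srm) adds an aminopropyl group to give spermidine, and Sat1 acetylates spermidine and spermine for export or oxidation. Antizymes (Oaz1, Oaz2) bind ornithine decarboxylase and bring it to the proteasome, and they are made through a ribosomal frameshift that polyamines promote. Antizyme inhibitor (Azin1) resembles ornithine decarboxylase without its activity and takes antizyme away from it. Much of this control acts on protein, which the arrays did not measure, and in bulk RNA fewer cells of a kind and less RNA per cell cannot be told apart.

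All values below are log2 of the deposited intensity, and the brightest probe set stands for a gene unless another is named. Differences carry the standard error (SE) of a limma fit to all arrays, with p-values adjusted by Benjamini-Hochberg over the 12724 probe sets tested, and a gene is called at adjusted p under 0.05. Levels of different genes are not comparable, since probe sets differ in brightness. Across probe sets, r within groups ran between 0.972 and 0.995. Of the T cell markers listed, 10 of 10 on the array reached log2 5 in at least 1 group, with Cd3d between 11.59 and 13.26, but Cd4 and Cd8a lay close to that floor (5.51 to 6.21). Group means ran from 4.42 to 10.25 for Cd247 and from 4.85 to 11.62 for Ptcra, so both fell below the floor in at least 1 group. Of markers for other cells, 1 of 4 for B cells, 2 of 5 for myeloid, 0 of 2 for erythroid and 1 of 5 for stromal cells reached log2 5 in at least 1 group, none above 6.42. The arrays were split into 2 clusters by sign on the leading axis of their within-group deviations. The labels do not give this split, and any data would yield 2 sets by this rule. Here 10 arrays form cluster 1 (untreated replicates 1 and 2, and the first replicate at every treated time), and 16 form cluster 2. The 3' minus 5' gap of Gapdh, a measure of RNA quality, differed in mean between the clusters, with overlapping ranges. The 3' Gapdh probe set read below the 5' one in cluster 1, with a mean gap of -0.15 ± 0.06 (SD over 10 arrays, range -0.25 to -0.02). It read 0.02 ± 0.09 above it in cluster 2 (SD over 16, range -0.09 to 0.27). Actb was not summarised by cluster. By group, the Gapdh gap averaged 0.10 ± 0.20 in WT at 24 h (SD, n = 3) and between -0.09 and -0.04 in the other 7 groups, and the same gap for Actb averaged 1.87 ± 0.30 in WT at 24 h and between 1.52 and 1.77 in the others. WT at 24 h is also the group with the lowest Azin1, Odc1 and Srm and the highest Oaz2 and Sat1 means below. For Srm and Sat1 its arrays overlapped those of the next group. The part of RNA quality in the results was not tested, and values within clusters stand beside the results they touch. Cluster 1 has 1 array per treated group, so a call lost there cannot be told apart from the loss of arrays.

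The promoters of 4 measured genes were in the RefSeq table (build GRCm38.p6), and the 250 bases before the start are shown for all 4. Of these genes Odc1 was lower at 24 h, Sat1 and Oaz2 rose and Oaz1 passed no test. A link between promoter letters and these courses was not tested. Srm and Azin1 have no entry. The capitals mark matches on either strand to TGACG, the core of the cAMP response element, and to GGGCGG, the GC box that Sp1 binds.
Odc1 (chr12:17544623-17544872, plus strand): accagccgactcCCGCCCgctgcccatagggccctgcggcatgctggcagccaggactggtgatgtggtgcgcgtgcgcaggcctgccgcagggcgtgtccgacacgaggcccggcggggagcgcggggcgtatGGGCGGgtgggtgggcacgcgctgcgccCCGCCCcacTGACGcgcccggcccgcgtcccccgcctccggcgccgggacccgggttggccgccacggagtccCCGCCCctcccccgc
Sat1 (chrX:155216450-155216699, minus strand): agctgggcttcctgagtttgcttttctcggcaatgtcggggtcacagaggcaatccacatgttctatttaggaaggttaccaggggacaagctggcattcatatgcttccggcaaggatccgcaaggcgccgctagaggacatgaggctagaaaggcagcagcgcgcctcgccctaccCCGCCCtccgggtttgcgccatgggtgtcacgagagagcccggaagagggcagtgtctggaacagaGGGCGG
Oaz2 (chr9:65676298-65676547, plus strand): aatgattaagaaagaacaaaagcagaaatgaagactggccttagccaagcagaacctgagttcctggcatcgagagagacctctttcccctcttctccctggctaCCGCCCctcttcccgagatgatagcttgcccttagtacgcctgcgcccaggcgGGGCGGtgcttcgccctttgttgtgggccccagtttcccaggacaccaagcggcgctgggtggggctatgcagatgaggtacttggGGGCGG
Oaz1 (chr10:80826406-80826655, plus strand): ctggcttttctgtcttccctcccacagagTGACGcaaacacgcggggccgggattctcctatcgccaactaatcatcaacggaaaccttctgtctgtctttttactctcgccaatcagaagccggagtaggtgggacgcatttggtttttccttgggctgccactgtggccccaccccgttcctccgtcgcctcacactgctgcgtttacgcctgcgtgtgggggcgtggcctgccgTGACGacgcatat
The full cAMP response element TGACGTCA and the MYC and MAX element CACGTG were also searched, and neither occurs in these 4 windows. Over 32851 mouse promoter windows of the same length, the full element was found in 1.55%, CACGTG in 6.02%, TGACG in 17.8% and GGGCGG in 32.7%. TGACG, which the full element contains, occurs 2 times in the Oaz1 window and 1 time in that of Odc1. GGGCGG occurs 4 times for Odc1, 3 for Oaz2 and 2 for Sat1. A match is a description of letters, and its absence says only that these letters are not in the window.

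In both lines the treated cells had less Srm, Odc1 and Azin1 and more Sat1 and Oaz2 RNA by 24 h. Srm was lower in both lines from 6 h and in WT from 2 h, Azin1 was lower from 6 h in WT and at 24 h in D-, Odc1 was lower at 24 h, Sat1 rose from 2 h and Oaz2 from 6 h, and Oaz1 did not pass in any comparison. In D- cells 1 of 6 members was called at 2 h, 3 at 6 h and 5 at 24 h, while over all 7435 genes 22.3%, 31.8% and 34.7% were called at these times. In WT cells 2 of 6 were called at 2 h, 4 at 6 h and 5 at 24 h, against 25.1%, 38.2% and 53.8% of all genes. At 24 h, 2 members were higher and 3 lower in each line, and the median log2 difference of the 6 was -0.13 in D- and -0.36 in WT, against -0.02 and 0.0002 over all genes. The plot of changes by time shows that the 2 lines took the same direction in every called case.

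**Figure D1:**
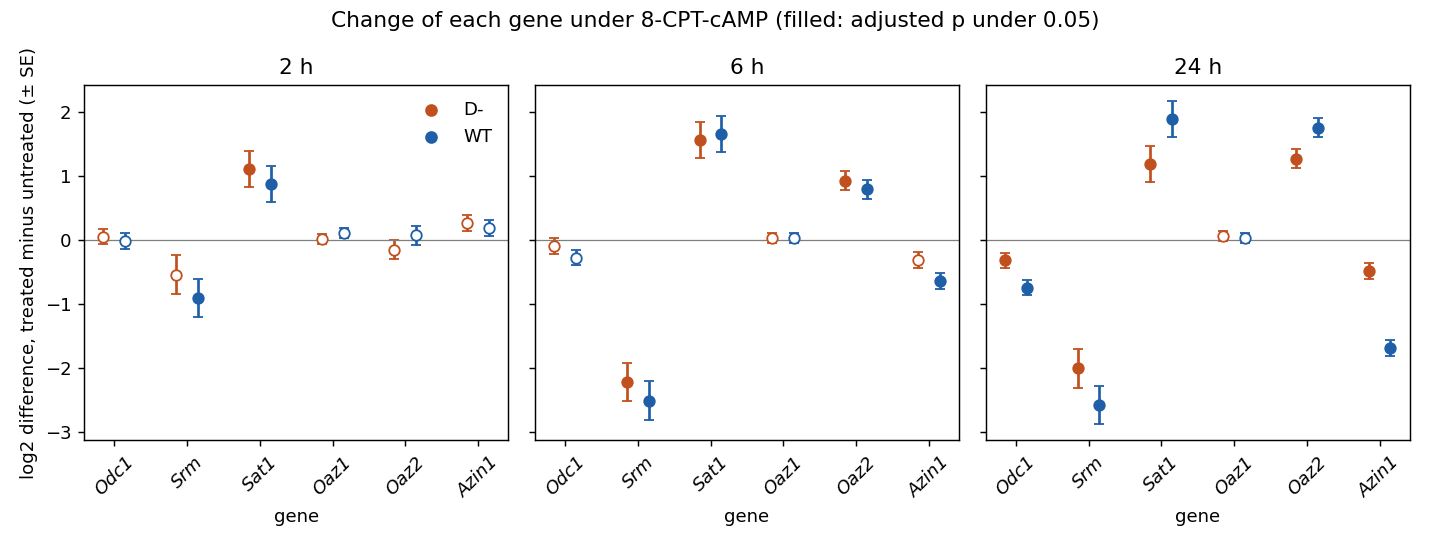
Log2 difference of each gene from untreated cells of its line (vertical axis, ± SE of the limma fit) after 2, 6 and 24 h, with D- in orange and WT in blue; filled points passed at adjusted p under 0.05. Srm lies lowest at 6 h and 24 h, Sat1 and Oaz2 highest, Oaz1 near 0 throughout, and the lines part most for Azin1 at 24 h (-0.48 in D-, -1.69 in WT).

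Odc1, the first enzyme of the pathway, was lower in both lines at 24 h and was not called at 2 or 6 h. Its log2 intensity in D- cells was 12.91, 13.23, 13.05 and 13.13 untreated, 13.09, 13.14 and 13.15 at 2 h, 13.08, 12.92 and 12.96 at 6 h, and 12.75, 12.70 and 12.82 at 24 h. In WT cells it was 12.90, 12.77, 12.99 and 13.14 untreated, 12.81, 13.00 and 12.98 at 2 h, 12.65, 12.71 and 12.65 at 6 h, and 12.54, 11.86 and 12.21 at 24 h. The 24 h arrays lay below all untreated arrays in both lines. Odc1 fell by 0.32 ± 0.12 in D- at 24 h (limma adjusted p = 0.0409) and by 0.75 ± 0.12 in WT (1.68-fold, limma adjusted p = 1.74e-05). At 6 h the difference was -0.10 ± 0.12 in D- and -0.28 ± 0.12 in WT (limma adjusted p = 0.598 and 0.0745). The WT value at 6 h was called with median centring (adjusted p = 0.0258), with array weights (0.00262), within cluster 2 (0.0216) and without untreated WT replicate 2 (0.0432). The step from 6 to 24 h passed in WT, with -0.47 ± 0.13 (limma adjusted p = 0.00747), and not in D-, with -0.23 ± 0.13 (limma adjusted p = 0.265).

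The 2 dimmer Odc1 probe sets gave -0.42 and -0.64 in D- at 24 h (limma adjusted p = 0.0291 and 0.00545) and -0.90 and -1.03 in WT (1.79e-05 and 2.48e-05). The brightest probe set has the suffix (x) that Affymetrix gives to sets whose probes may bind other transcripts, and it showed the smallest of the 3 changes. The D- call at 24 h for the brightest set was lost with no filter on dim probe sets (adjusted p = 0.0526), with only the groups compared (0.06), within cluster 1 (0.338), with the replicate number as a block (0.0786) and without any 1 of 6 arrays, namely untreated D- replicates 2, 3 and 4 and D- 24 h replicates 1, 2 and 3 (0.113, 0.0589, 0.0852, 0.0814, 0.131 and 0.0601). In WT at 24 h the value was -0.30 within cluster 1 (adjusted p = 0.3) and -1.03 within cluster 2 (1.13e-05). The WT step from 6 to 24 h was -0.12 within cluster 1 (0.819), -0.30 without WT 24 h replicate 2 (0.0748), and did not pass when only the groups compared were fitted (0.125).

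Srm, the spermidine synthase gene, had the largest falls of the 6. In D- cells it was at 12.11, 12.21, 12.44 and 12.36 untreated, at 11.52, 11.80 and 11.87 at 2 h, at 10.22, 9.93 and 10.03 at 6 h, and at 10.85, 9.90 and 10.07 at 24 h. In WT cells it was at 12.19, 12.55, 12.03 and 11.88 untreated, at 11.54, 11.30 and 10.91 at 2 h, at 10.18, 9.16 and 9.62 at 6 h, and at 10.50, 8.74 and 9.51 at 24 h. Every treated array lay below every untreated array of its line, and at 24 h replicate 1 was the highest in both lines. Srm fell by 2.22 ± 0.30 in D- at 6 h (4.66-fold, limma adjusted p = 1.02e-05) and at 24 h its difference was -2.01 ± 0.30 (4.02-fold lower, limma adjusted p = 2.39e-05). In WT it fell by 2.51 ± 0.30 at 6 h (5.70-fold) and by 2.58 ± 0.30 at 24 h (5.97-fold, limma adjusted p = 3.29e-07). Nearly all of this was reached by 6 h: the step from 2 to 6 h was -1.67 ± 0.32 in D- and -1.60 ± 0.32 in WT (limma adjusted p = 0.000753 and 0.0014), while from 6 to 24 h it was 0.21 ± 0.32 in D- and -0.07 ± 0.32 in WT, neither called.

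At 2 h Srm gave -0.55 ± 0.30 in D- (limma adjusted p = 0.232) and fell by 0.91 ± 0.30 in WT (limma adjusted p = 0.0307). The WT call was lost with no filter (adjusted p = 0.0561), within cluster 1 (0.0895), and without untreated WT replicate 1 or 2 or WT 2 h replicate 2 or 3 (0.0567, 0.094, 0.0689 and 0.155). The D- value passed when only the groups compared were fitted (0.016). Within cluster 1 the D- difference at 24 h was -1.31 (adjusted p = 0.0378), against -2.41 within cluster 2. The 2 to 6 h steps did not pass within cluster 1 (0.085 in D-, 0.0882 in WT).

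Sat1, which encodes the acetyltransferase of polyamine breakdown, rose at all 3 times in both lines. Its log2 intensity in D- cells was 9.79, 9.59, 9.63 and 9.63 untreated, 10.81, 10.79 and 10.70 at 2 h, 11.13, 11.44 and 11.08 at 6 h, and 10.31, 11.13 and 11.09 at 24 h. In WT cells it was 9.26, 9.35, 9.50 and 9.72 untreated, 10.04, 10.19 and 10.76 at 2 h, 10.61, 11.16 and 11.56 at 6 h, and 10.43, 11.93 and 11.68 at 24 h. No treated array overlapped the untreated arrays of its line, and replicate 1 at 24 h was the lowest of its group in both lines. In D- the rise was 1.10 ± 0.28 at 2 h (2.15-fold), 1.56 ± 0.28 at 6 h (2.94-fold) and 1.18 ± 0.28 at 24 h (2.27-fold), with limma adjusted p = 0.00554, 0.000186 and 0.00206. In WT it was 0.87 ± 0.28 (1.83-fold), 1.65 ± 0.28 (3.14-fold) and 1.89 ± 0.28 (3.70-fold), with limma adjusted p = 0.0243, 7.8e-05 and 6.24e-06. No step between neighbouring treated times was called for Sat1 in either line, but the WT step from 2 to 6 h (0.78 ± 0.30, limma adjusted p = 0.0642) passed with the cluster as a block (0.0149), the replicate block (0.0264), array weights (0.000512), within cluster 2 (0.00554) and without WT 2 h replicate 3 or WT 6 h replicate 1 (0.0359 and 0.0242). Its D- step from 2 to 6 h passed with only the groups compared (0.0386), and its WT step from 6 to 24 h without WT 24 h replicate 1 (0.039).

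The 2 h call for Sat1 in WT was lost within cluster 1 (adjusted p = 0.068) and without untreated WT replicate 1 or 2 or WT 2 h replicate 3 (0.0615, 0.0546 and 0.161). At 24 h the difference was 0.62 in D- (adjusted p = 0.0817) and 1.12 in WT (0.0122) within cluster 1, and 1.48 and 2.20 within cluster 2.

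The 2 antizyme genes behaved differently. Oaz1 spanned a narrow band: its 26 values ran between 13.34 and 13.60 and group means between 13.44 ± 0.10 (untreated D-, SD, n = 4) and 13.56 ± 0.04 (WT 2 h, SD, n = 3). In D- cells the arrays showed 13.48, 13.56, 13.39 and 13.34 untreated and 13.59, 13.44 and 13.47 at 24 h. In WT cells they showed 13.48, 13.48, 13.38 and 13.47 untreated and 13.60, 13.47 and 13.39 at 24 h. At 24 h the groups overlapped in both lines, while the 3 WT arrays at 2 h all lay above untreated WT, with a difference of 0.11 (95% interval -0.06 to 0.27, limma adjusted p = 0.381). The 24 h difference was 0.06 in D- (95% interval -0.11 to 0.22) and 0.03 in WT (-0.14 to 0.20), so a change of more than 0.22 in either direction lies outside both intervals. Another Oaz1 probe set also carries the symbol of the pseudogene Oaz1-ps and was not used.

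Oaz2, the second antizyme gene, rose from 6 h on. It was at 6.87, 6.78, 6.85 and 6.71 in untreated D- cells, at 6.99, 6.33 and 6.62 at 2 h, at 7.89, 7.63 and 7.64 at 6 h, and at 8.03, 8.16 and 8.02 at 24 h. WT cells showed 7.02, 7.08, 7.47 and 7.37 untreated, 7.16, 7.35 and 7.41 at 2 h, 7.89, 7.99 and 8.19 at 6 h, and 8.64, 9.08 and 9.21 at 24 h. The 6 h and 24 h arrays lay above all untreated arrays of their line, while those at 2 h overlapped them. Oaz2 rose by 0.92 ± 0.15 at 6 h (1.89-fold) and 1.27 ± 0.15 at 24 h (2.41-fold) in D-, with limma adjusted p = 7.34e-05 and 1.09e-06. In WT it rose by 0.79 ± 0.15 (1.73-fold) and 1.75 ± 0.15 (3.36-fold), with limma adjusted p = 0.000272 and 4.66e-09. From 6 to 24 h it rose again in WT, by 0.96 ± 0.16 (limma adjusted p = 8.94e-05), and gave 0.35 ± 0.16 in D- (0.154). The dimmer Oaz2 probe set also passed at 6 and 24 h, with 1.26 and 1.42 in D- and 0.69 and 1.17 in WT. Its D- rises start from an untreated mean close to the floor (5.49). Its WT steps were not called, with 0.44 from 2 to 6 h and 0.475 from 6 to 24 h (limma adjusted p = 0.146 and 0.0964). In D- its step from 2 to 6 h passed (0.73, limma adjusted p = 0.0159). At 2 h in D- it gave 0.53 (limma adjusted p = 0.0615), against -0.16 for the brighter set.

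Azin1, the antizyme inhibitor gene, was lower from 6 h in WT, and at 24 h its response differed between the lines. In D- cells it was at 10.06, 9.84, 9.91 and 10.26 untreated, at 10.11, 10.33 and 10.38 at 2 h, at 9.65, 9.78 and 9.69 at 6 h, and at 9.49, 9.51 and 9.61 at 24 h. In WT cells it was at 9.97, 9.75, 10.03 and 9.99 untreated, at 10.10, 10.11 and 10.14 at 2 h, at 9.03, 9.62 and 9.21 at 6 h, and at 8.44, 8.13 and 8.15 at 24 h. The 3 WT arrays at 24 h lay below the other 23 arrays. At 6 h the difference was -0.31 ± 0.12 in D- (limma adjusted p = 0.0647), and Azin1 fell by 0.65 ± 0.12 in WT (1.56-fold, limma adjusted p = 0.000335). At 24 h it fell by 0.48 ± 0.12 in D- (1.40-fold, limma adjusted p = 0.00457) and by 1.69 ± 0.12 in WT (3.22-fold, limma adjusted p = 6.14e-10). In D- the 6 h value was called with quantile normalization (adjusted p = 0.0412), median centring (0.0273), array weights (0.00725), the mean of both probe sets (0.0121), the cluster as a block (0.0314) and without untreated D- replicate 2 (0.0418). The second Azin1 probe set gave -0.63 in D- and -1.06 in WT at 6 h and -0.65 and -1.62 at 24 h, all called. Calls against untreated cells for the brighter Azin1 set were lost only within cluster 1 among the alternatives run, with 1 array per treated group. There the D- change at 24 h was -0.46 and the WT change at 6 h was -0.83, a larger fall than over all arrays.

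**Figure D2:**
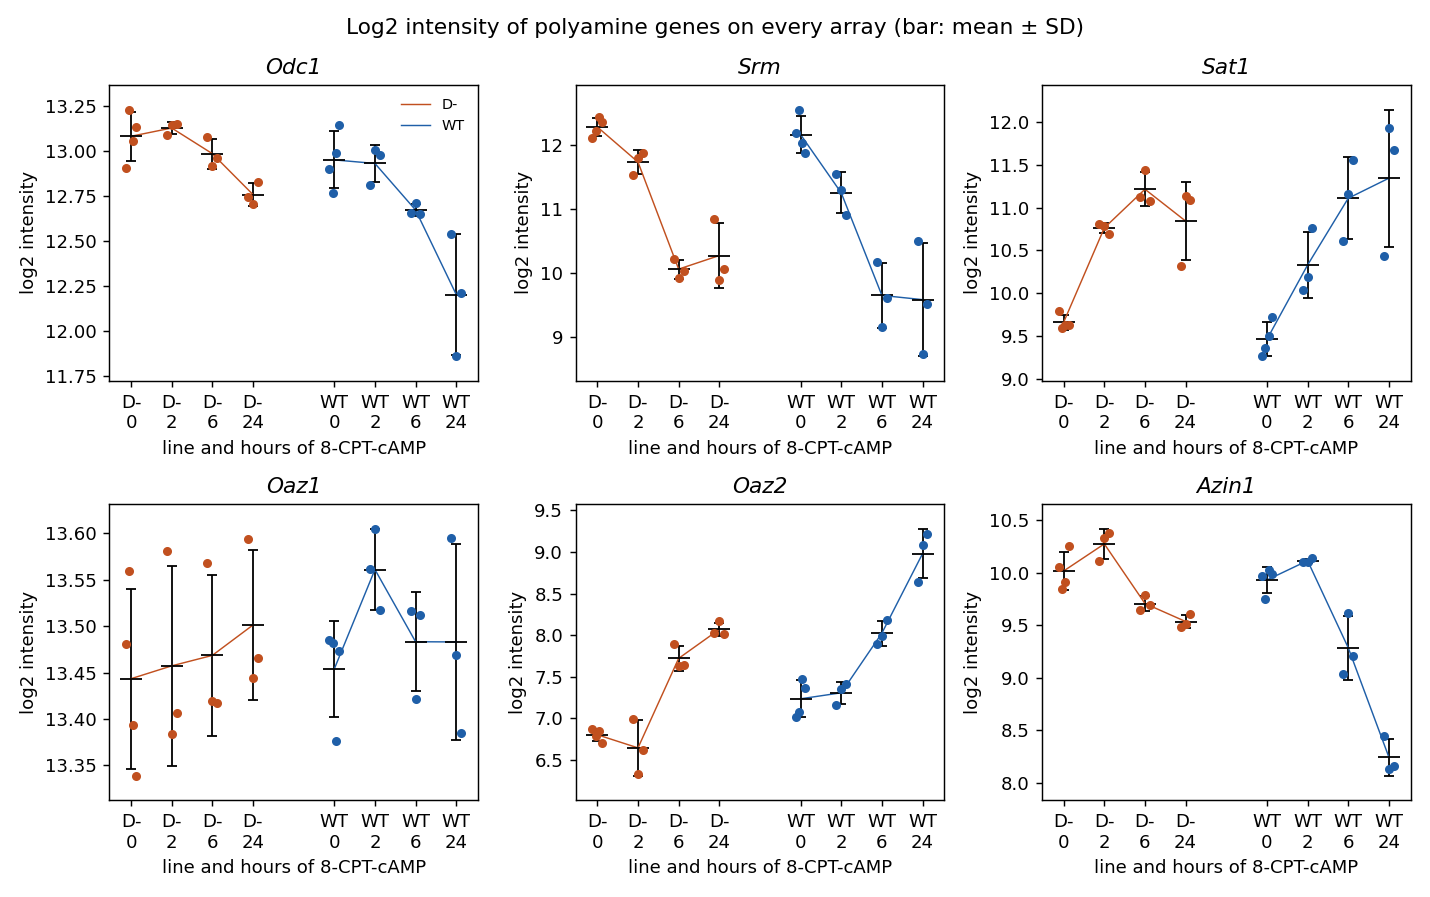
Log2 intensity of the standing probe set of each gene on all 26 arrays (vertical axis, own scale in each panel) against hours of 8-CPT-cAMP, with D- on the left in orange and WT on the right in blue; points are arrays and black marks the mean ± SD. Srm steps down between 2 and 6 h in both lines, Azin1 at 24 h reaches 8.24 in WT but 9.54 in D-, and the whole Oaz1 panel spans only 13.34 to 13.60.

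The step from 2 to 6 h held 3 called members in each line, Srm and Azin1 lower and Oaz2 higher, against 23.6% of all genes called in D- and 21.6% in WT. From 6 to 24 h no member was called by limma in D- (1 at an unadjusted p under 0.05, Oaz2) and 3 were in WT, Odc1 and Azin1 lower and Oaz2 higher, against 16.1% and 32.4% of all genes. In that last interval Azin1 gave -0.17 ± 0.13 in D- (limma adjusted p = 0.453) and fell by 1.04 ± 0.13 in WT (limma adjusted p = 4.28e-06). Within cluster 1, with 1 treated array per group, none of these steps passed, and the WT step of Azin1 between 6 and 24 h was -0.59 (adjusted p = 0.2).

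Between untreated D- and WT cells limma called 0 of the 6 genes (1 at an unadjusted p under 0.05), against 5.00% of all genes called. That gene was Oaz2, at 6.80 ± 0.07 in D- and 7.23 ± 0.22 in WT (SD, n = 4 each), with the 4 D- arrays all below the 4 WT arrays and a difference of -0.43 ± 0.14 (limma adjusted p = 0.0868, unadjusted 0.00497). Its dimmer probe set was called lower in D-, with -0.82 ± 0.18 (limma adjusted p = 0.00909), though 1 D- array overlapped WT there. That set lay close to the log2 5 floor in untreated D- cells (5.49 ± 0.27, SD, n = 4). Oaz2 was also called with the mean of both probe sets (-0.63, adjusted p = 0.006), with array weights (-0.52, 0.00532) and within cluster 2 (-0.64, 0.00665), but within cluster 1 it was -0.22 (0.378). For the other 5 genes the 95% intervals were -0.46 to 0.70 for Srm, -0.10 to 0.36 for Odc1, -0.33 to 0.73 for Sat1, -0.16 to 0.14 for Oaz1 and -0.15 to 0.33 for Azin1.

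The response of the lines was compared as an interaction, the D- change minus the WT change. At 2 and 6 h limma called no member (0 at an unadjusted p under 0.05), and 0.242% and 0.592% of all genes. At 24 h Azin1 passed, with 1.21 ± 0.18 (95% interval 0.84 to 1.57, limma adjusted p = 0.000108), as 1 of 6 members against 12.3% of all genes. Its second probe set gave 0.97 ± 0.27 (limma adjusted p = 0.0219). The Azin1 difference was 0.95 within cluster 1 (adjusted p = 0.161) and 1.34 within cluster 2 (0.000653), and it passed in the other alternatives run.

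For the other genes the 24 h difference between lines did not pass, with intervals that leave room for sizeable effects. It was 0.42 for Odc1 (0.07 to 0.77, limma adjusted p = 0.113), 0.57 for Srm (-0.32 to 1.46, 0.458), -0.70 for Sat1 (-1.52 to 0.11, 0.284), -0.48 for Oaz2 (-0.92 to -0.04, 0.159) and 0.03 for Oaz1 (-0.21 to 0.26, 0.919). The fitted D- change was the smaller in all of these but Oaz1, though within cluster 1 the Odc1 difference was -0.03. The second Oaz2 probe set pointed the other way, with 0.26 (-0.33 to 0.84), but its untreated D- level was close to the floor. WT 24 h replicate 1 weighed on this count: without it 4 members passed, adding Odc1 with 0.59 (adjusted p = 0.00841), Sat1 with -1.16 (0.0136) and Oaz2 with -0.65 (0.0306). That array belongs to cluster 1. With array weights the same count was 4, and within cluster 2 it was 2.

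**Figure D3:**
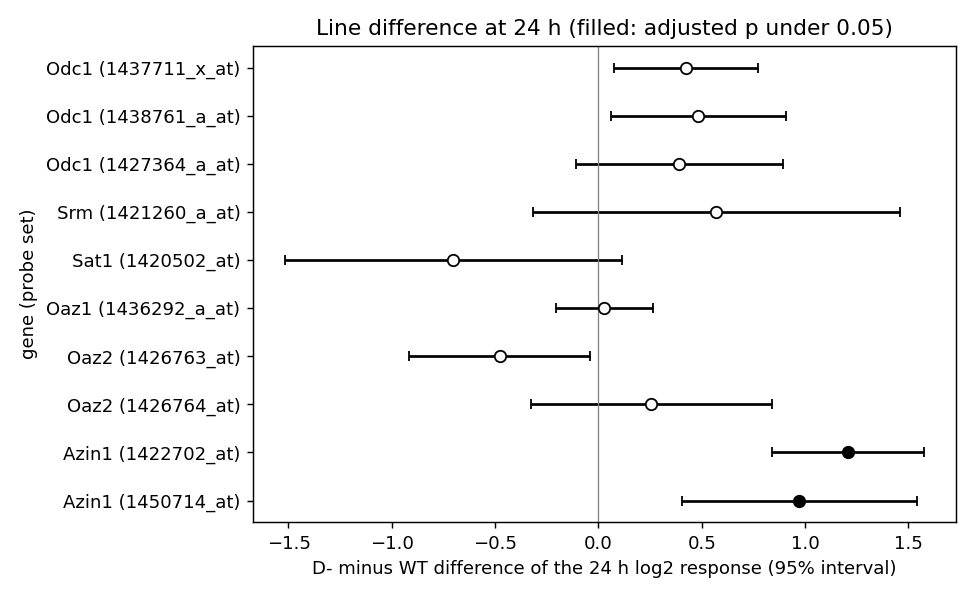
D- minus WT difference of the 24 h log2 response (horizontal axis, with 95% interval) for each of the 10 probe sets of the 6 genes; filled points passed at adjusted p under 0.05. Only the 2 Azin1 probe sets are filled, at 1.21 and 0.97, and the 3 Odc1 probe sets lie between 0.39 and 0.48.

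Ordered by group mean, Srm was lowest in WT at 24 h (9.58) and 6 h (9.65), whose arrays overlapped each other and those of D- at 6 h (10.06), and highest in untreated D- (12.28), which overlapped untreated WT (12.16). Sat1 ran nearly the other way, from untreated WT (9.46) and untreated D- (9.66), which overlapped, to WT at 24 h (11.35), and all neighbours among its 6 treated groups overlapped. Odc1 and Azin1 were both lowest in WT at 24 h (12.20 and 8.24), each clear of the next group, WT at 6 h, and both highest in D- at 2 h (13.13 and 10.28). Oaz2 had its highest level in WT at 24 h (8.98), clear of the next group, D- at 24 h (8.07), and its lowest in D- at 2 h (6.64). Among Oaz1 groups all neighbours overlapped.

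The genes whose 8 group means most resembled those of a member are given by Pearson r over the 8 means, which share arrays and normalization. For Srm they were Rrp9, Tma16 and Ftsj3 (r between 0.996 and 0.999). For Odc1 they were Psmc4, U2af1 and Rnps1 (0.986 to 0.992), and for Azin1 Bclaf1, Dhx9 and Slc25a10 (0.988 to 0.991). Sat1 was most like Lrp10, Pttg1ip and Gucd1 (0.977 to 0.983) and Oaz2 most like Prkra, Hint3 and Flot2 (0.987 to 0.996). For Oaz1 the closest were Ndufa1, Tnrc6b and Ubn1 (0.910 to 0.937). The Oaz1 group means vary less (SD 0.037 over the 8) than its replicates within groups (SD 0.044 to 0.108). Between members, Odc1 and Azin1 means went together (r = 0.97) and both ran against Oaz2 (r = -0.94 for each). Srm ran against Sat1 (r = -0.90) and Oaz2 (-0.87), and r for the remaining pairs lay between -0.59 and 0.76. These values were not compared with r between other genes over the same time course.

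Around these genes, a list of 44 symbols for precursor supply, polyamine oxidation, hypusine formation, methionine salvage, transport and MYC-family regulators was examined (Adc is an older name of Azin2). Of these 34 had a probe set of their own and 24 passed the filter. In D- cells 3 were higher and 3 lower at 2 h, 1 higher and 7 lower at 6 h, and 3 higher and 7 lower at 24 h. In WT cells 2 were higher and 3 lower at 2 h, 1 higher and 7 lower at 6 h, and 4 higher and 11 lower at 24 h. Over all genes the shares called at these times were 22.3%, 31.8% and 34.7% in D- and 25.1%, 38.2% and 53.8% in WT. The list's median log2 difference at 24 h was -0.19 in D- and -0.32 in WT, against -0.02 and 0.0002 over all genes. The WT count at 2 h ran between 1 (within cluster 1) and 10 (array weights, and within cluster 2), with 8 for the cluster as a block and 9 for the replicate block.

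Methionine salvage recycles the methylthioadenosine left by spermidine and spermine synthesis. Enoph1, a phosphatase of that route, fell by 1.01 ± 0.13 in D- at 24 h (limma adjusted p = 4.69e-06) and by 1.47 ± 0.13 in WT (limma adjusted p = 1.09e-08). Mtap, which cleaves methylthioadenosine, was lower at 2 h in both lines, with -0.53 ± 0.17 in D- and -0.70 ± 0.17 in WT (limma adjusted p = 0.0294 and 0.00395), and at 24 h it was called in WT (-0.71 ± 0.17, limma adjusted p = 0.00125). Mri1, the isomerase of the route, was the 1 listed gene called between untreated lines, with -0.48 ± 0.10 for D- minus WT (limma adjusted p = 0.00356), and it was also lower in treated WT cells at 6 and 24 h (-0.31 ± 0.10 and -0.27 ± 0.10, 0.0223 and 0.0301). The WT 6 h call was lost with only the groups compared (0.0649), within cluster 1 (0.331) and cluster 2 (0.0546) and without untreated WT replicate 1 or WT 6 h replicate 2 or 3 (0.0676, 0.121 and 0.0837). The 24 h call was lost with only the groups compared (0.103), within both clusters (0.318 and 0.0713) and without untreated WT replicate 1 or 2 or WT 24 h replicate 2 (0.0862, 0.0586 and 0.222, the last with -0.17). Within cluster 1 the calls were lost for Enoph1 in D- at 24 h (-0.75) and for Mtap in WT at 24 h (-0.18). There the Mtap calls at 2 h were also lost, with -0.44 in D- and -0.66 in WT. The Mri1 line difference was lost within cluster 1 (-0.55) and was not called within cluster 2 either (adjusted p = 0.0747). The Mtap call in D- at 2 h was lost without any of several single arrays, untreated D- replicates 1, 3 and 4 and D- 2 h replicates 1, 2 and 3 (0.0525, 0.0737, 0.0576, 0.0684, 0.101 and 0.0577).

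Spermidine is also the source of hypusine, the modified lysine of the translation factor eIF5A. Its gene Eif5a fell by 0.44 ± 0.12 in D- at 24 h (limma adjusted p = 0.00724) and by 0.78 ± 0.12 in WT at 6 h (limma adjusted p = 3.21e-05), a fall still called at 24 h (4.98e-07). Dhps, which makes the hypusine precursor, fell by 0.86 ± 0.22 in D- and 0.81 ± 0.22 in WT at 6 h (limma adjusted p = 0.00437 and 0.00543), while Dohh, the second enzyme, was not called at any time. The Dhps call in D- at 6 h was lost without D- 6 h replicate 2 (adjusted p = 0.0518) and within cluster 1 (-0.66). At 24 h Dhps was called lower in D- (-0.61, limma adjusted p = 0.0346), and its WT means were 7.82 at 24 h and 8.12 untreated. That D- call was lost with no filter (0.0616), with probe set means (0.0748), without untreated D- replicate 1 (0.0768) and within cluster 1 (-0.58). The Eif5a call in D- was lost without D- 24 h replicate 3 (adjusted p = 0.0617) and within cluster 1 (-0.26). The WT call for Eif5a at 6 h was also lost within cluster 1 (-0.57).

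Among precursor genes, Oat, the ornithine aminotransferase that ties ornithine to glutamate and proline, rose in both lines at 2 h and had opposite signs in them at 24 h. The 2 h rise was 0.52 ± 0.17 in D- and 0.87 ± 0.17 in WT (limma adjusted p = 0.0317 and 0.000581). Both 2 h calls were lost within cluster 1 (0.0853 and 0.0678), and the D- one also with no filter (0.0502) and without untreated D- replicate 1, 2, 3 or 4 or D- 2 h replicate 1 or 2 (0.0552, 0.0518, 0.0609, 0.0589, 0.0972 and 0.111). Oat stood at 12.68 ± 0.18 at 24 h and 11.90 ± 0.03 untreated in D-, and at 11.09 ± 0.51 and 11.53 ± 0.26 in WT (SD, n = 3 at 24 h and 4 untreated). It rose by 0.78 ± 0.17 in D- (limma adjusted p = 0.0012) and fell by 0.44 ± 0.17 in WT (limma adjusted p = 0.0338), and the difference was 1.22 ± 0.24 (limma adjusted p = 0.00165). The WT fall was not called without untreated replicate 1 or 2 or any WT 24 h replicate but the first (adjusted p = 0.112, 0.0862, 0.296 and 0.129) or within cluster 1 (-0.10, 0.615), nor with no filter, with quantile normalization or with only the groups compared (0.0551, 0.102 and 0.182), and it was -0.73 without WT 24 h replicate 1. The difference between lines was lost only within cluster 1 (1.05, 0.111). Ahcy, which clears S-adenosylhomocysteine, fell by 0.75 ± 0.10 in D- and 1.26 ± 0.10 in WT at 24 h (limma adjusted p = 8.23e-06 and 2.88e-09), and the D- call was lost within cluster 1 (0.109).

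Of the transport genes, Atp13a2, the lysosomal polyamine exporter, rose by 0.60 ± 0.14 in D- and 0.82 ± 0.14 in WT at 24 h (limma adjusted p = 0.00162 and 2.81e-05), and the glypican gene Gpc1 fell by 0.79 ± 0.20 and 1.23 ± 0.20 (0.0035 and 1.81e-05). The Gpc1 fall in D- was -0.28 within cluster 1 (adjusted p = 0.38) and did not pass when only the groups compared were fitted (0.0534). Slc3a2, the heavy chain of several amino acid transporters, was higher at 2 h in both lines, with 0.87 ± 0.19 in D- and 0.56 ± 0.19 in WT (limma adjusted p = 0.00148 and 0.0304). The WT call was lost with only the groups compared (0.123), within cluster 1 (0.106) and without untreated WT replicate 1 or 2 or WT 2 h replicate 2 or 3 (0.0936, 0.107, 0.124 and 0.166). Its partner gene Slc7a5 and the P5 ATPase gene Atp13a3 were called lower in D- at 6 h (-0.56 and -0.54, limma adjusted p = 0.0366 and 0.0182). Both calls were lost within cluster 1 (-0.52 and -0.63) and without D- 6 h replicate 2 or 3. The Atp13a3 call was also lost within cluster 2 (-0.39, adjusted p = 0.169) and with only the groups compared (0.0653), and the Slc7a5 call with no filter (0.063). The Atp13a2 rise in D- was not called within cluster 1 (0.0885).

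Myc, an activator of Odc1 and Srm, was at 7.36 ± 0.33 in D- and 7.96 ± 0.23 in WT at 2 h (SD, n = 3), against 10.52 ± 0.66 and 10.45 ± 0.46 untreated (SD, n = 4). By 24 h its log2 difference was -1.52 ± 0.30 in D- and -2.16 ± 0.30 in WT, and in WT it was -1.22 within cluster 1. Mxd4, a MAX-binding repressor, rose at 24 h by 2.58 ± 0.26 in D- and 3.29 ± 0.26 in WT. Max, the shared partner, gave -1.20 ± 0.41 and -1.19 ± 0.41 (limma adjusted p = 0.0287 and 0.0187), and Mycn was not called at any time. The Max calls were lost without 24 h replicate 2 of either line (-0.72 in D-, adjusted p = 0.242, and -0.73 in WT, 0.177) and in several other alternatives. Of the other MAX-network genes, Mxi1 and Mnt were higher in WT at 24 h (1.11 ± 0.32 and 0.76 ± 0.21, limma adjusted p = 0.00606 and 0.00373), with 0.57 and 0.35 within cluster 1, where Mnt was not called (0.267), nor Mxi1 without WT 24 h replicate 2 (0.0638). Mnt was also higher in D- at 2 h (0.72 ± 0.21, limma adjusted p = 0.0139), a call lost within cluster 1 (0.0725).

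Of the 24 listed genes 5 differed between the lines in their 24 h response, against 12.3% of all genes, each with a positive D- minus WT difference: Oat, the MAX-binding repressor gene Mxd3 (1.10 ± 0.23, limma adjusted p = 0.00263), the salvage gene Apip (0.60 ± 0.16, 0.0165), Eif5a (0.56 ± 0.17, 0.0342) and Ahcy (0.51 ± 0.15, 0.026). In WT at 24 h Mxd3 and Apip were lower, with -0.87 and -0.34 (limma adjusted p = 0.000106 and 0.0148), and Apip gave -0.32 within cluster 1. In D- the means at 0 and 24 h were 8.56 and 8.79 for Mxd3 and 9.10 and 9.36 for Apip. The number of listed genes called for this line difference was 2 without WT 24 h replicate 2, 3 without WT 24 h replicate 3, D- 24 h replicate 1, untreated D- replicate 2 or untreated WT replicate 3, and 3 with only the groups compared. It was 8 without WT 24 h replicate 1 and with array weights (2 of them lower), 8 with the cluster or the replicate number as a block (3 lower), and 9 within cluster 2 (3 lower). Within cluster 1 none of the 5 passed, and Oat and Mxd3 passed in the other alternatives run. Apip was lost within cluster 2 (0.103) and without D- 24 h replicate 3 or WT 24 h replicate 2 (0.0536 and 0.0638). Ahcy was lost with quantile normalization (0.0621), with only the groups compared (0.0716) and without untreated D- replicate 2, untreated WT replicate 3, D- 24 h replicate 1 or WT 24 h replicate 2 or 3 (0.0519, 0.0505, 0.0975, 0.0854 and 0.0815). Eif5a was lost with median centring (0.057), with only the groups compared (0.0955) and without untreated D- replicate 1 or 2, untreated WT replicate 2 or 3, D- 24 h replicate 1 or 2 or WT 24 h replicate 2 or 3 (0.0528, 0.0675, 0.0636, 0.0557, 0.0967, 0.0734, 0.14 and 0.0802).

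**Figure D4:**
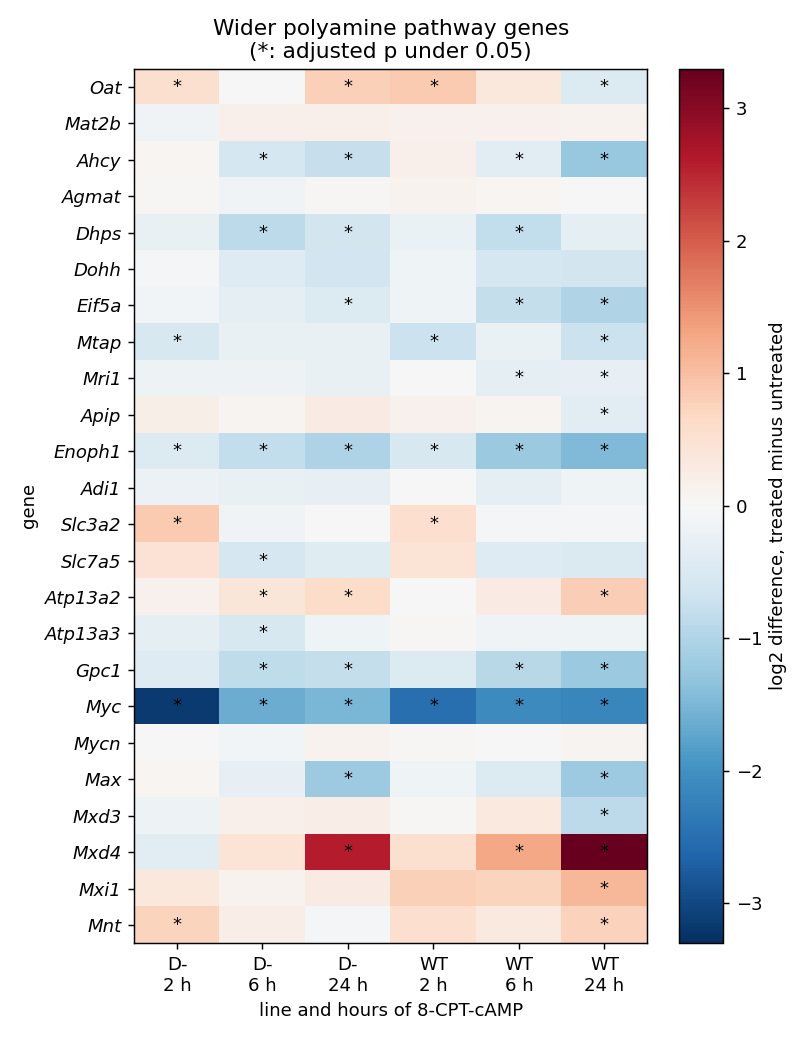
Log2 difference from untreated cells of the same line (colour scale, blue lower and red higher) for the 24 tested genes of the wider list in rows, with D- columns left of WT columns and times from 2 to 24 h; stars mark adjusted p under 0.05. Myc and Enoph1 are blue and starred in all 6 columns, Mxd4 is reddest at 24 h (2.58 in D-, 3.29 in WT), and Oat is red in D- but blue in WT at 24 h.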

How the data were processed

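RNA of 26 samples was measured on single-colour Affymetrix arrays, 1 per sample. Per the submitters' processing notes the authors used GCRMA, whose version is not given in the sources used here, and the deposited intensity values are linear, from 2 to 83530.7. GCRMA equalises arrays, so a shift shared by most genes would not be seen. Group and replicate were taken from the labels. Log2 was taken here with no pseudocount or further normalization. Of 22690 probe sets, 64 controls were left out. By the platform annotation 20380 have 1 symbol, 691 several and 1555 none, with symbols updated through Entrez identifiers, and none was named from several. Probe sets at or above log2 5 on at least 3 arrays were tested (12724, for 7435 genes), and the brightest stood for each gene. limma 3.58.1 in R 4.3.3 was fitted with a mean for each of 8 groups (residual degrees of freedom 18, prior 3.34), and p-values were Benjamini-Hochberg adjusted within each of 14 contrasts. The fit was tested on simulated data. The members, the wider list and the alternatives were chosen with earlier results of these data known. Named were all members, listed genes called in a treatment or line contrast, and the 3 most alike genes per member. Arrays were split into clusters by sign on the leading singular vector of their within-group deviations, which holds 38.8% of that variance; the split was made from the data. Alternatives were other filters, a pseudocount, normalizations, variance models, array weights, fewer groups, probe set means, blocks, clusters and arrays left out. For arrays, their number limits the precision. Figures used matplotlib 3.10.9 in Python 3.11.15.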

Additional observations from a re-analysis of the deposited data

Results flagged for a closer look

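The Azin1 response at 24 h differed between the lines by the interaction test in both probe sets. The D- minus WT difference was 1.21 for the brighter probe set (limma adjusted p = 0.000108) and 0.97 for the dimmer one (limma adjusted p = 0.0219), with the fall smaller in D-.

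In the untreated groups, 1 array stood apart from the other 3 in 2 of 20 combinations of probe set and line, where chance flags about 5%. The dimmer Oaz2 probe set was at 5.90 in untreated D- replicate 1, against 5.33 to 5.37 in the others. Oaz1 was at 13.38 in untreated WT replicate 3, against 13.47 to 13.48 in the others.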

How the results depend on the processing

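Of 84 member comparisons 30 were called. Of these 13 kept their call in every alternative run, none changed direction in any, and 42 of the 54 others were not called in any. The number of the 6 members called moved by over 1.5 times as follows. Within cluster 1, which has 1 array per treated group, so that a lone array is assumed to vary like the others, it was 0 for WT at 2 h, 2 for D- at 24 h and 0 for the line difference at 24 h, for the 2 to 6 h step in each line and for the WT 6 to 24 h step. Within cluster 2 it was 1 for untreated D- against WT, 2 for the line difference at 24 h and 1 for the D- 6 to 24 h step. With array weights it was 1, 4 and 1 for these and 5 for the WT 2 to 6 h step. With no filter on dim probe sets it was 1 for WT at 2 h, with only the groups compared 2 for D- at 2 h, and with probe set means 1 for untreated D- against WT. Leaving out single arrays gave 0 to 2 for WT at 2 h and 1 to 4 for the line difference at 24 h. Smaller moves were 3 to 5 for WT at 6 h (4 as reported), 3 to 4 for D- at 6 h (3) and 4 to 5 for WT at 24 h (5), over all alternatives. Outside the moves above, D- at 24 h fell to 4 in some alternatives (5 as reported), the WT 6 to 24 h step gave 2 to 4 (3), and the 2 to 6 h steps gave 3 to 4 (3). In the wider list 18 of 79 called comparisons kept their call throughout and none reversed. The cause was not tested. The array spread limits smaller changes, since a difference from untreated cells has an SE of 0.30 for Srm but 0.08 for Oaz1.

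Deviations of same-numbered arrays correlated between -0.47 and 0.60, over 0.1 in 12 of 18 pairs, and the reported fit did not pair samples. All negative values were for replicate 2, whose untreated arrays lie in cluster 1 and treated arrays in cluster 2. The sign thus follows the clusters, and these correlations cannot show whether replicate numbers pair the samples. With the replicate block the Odc1 call in D- at 24 h was lost (-0.28, adjusted p = 0.0786), the WT 2 to 6 h step of Sat1 passed (0.78, 0.0264), and no other member call changed. In the wider list the replicate block gave 9 calls for WT at 2 h and 8 for the line difference at 24 h, against 5 for each without it.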
